A study of Mus musculus with 7 samples.

Results

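Oxidative phosphorylation is carried out by 5 protein complexes of the inner mitochondrial membrane, and their genes were followed here in cardiac type 2 innate lymphoid cells (ILC2s). Members were chosen by gene symbol: nuclear symbols beginning with Ndufa, Ndufb, Ndufc, Ndufs or Ndufv and a number, Sdha to Sdhd, and symbols beginning with Uqcr, Cox4 to Cox8 or Atp5, together with the mitochondrially encoded Nd, Co, Cytb and Atp genes. The rule returned 97 of 55335 genes in the table, of which 84 were nuclear and 13 mitochondrial, after 6 processed copies marked "-ps" had been set aside. Of the nuclear members, 37 were placed by symbol in complex I, 4 in complex II, 8 in complex III, 18 in complex IV and 17 in complex V. The naming has known limits: Atp5s and Atp5sl carry the prefix of ATP synthase but are not subunits of it by present naming, and the complex I subunit Ndufab1 is not matched. Ndufa4, now assigned to complex IV, and its relative Ndufa4l2 were counted in complex I. Cox7a2l, which encodes a factor for respiratory supercomplexes, was counted in complex IV. Sums and counts per complex keep these placements.

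The cells were flow-sorted from mouse hearts as CD45+ Lineage- ST2+ cells, ST2 being the receptor for interleukin 33. Naive hearts gave 3 libraries and Balb/C hearts transplanted into C57BL/6 recipients, in acute rejection at day 7 after transplantation, gave 4. Each library pooled cells of 4 to 7 hearts, so a library and not an animal was the replicate. The labels gave no genotype, no sex and no strain for the naive hearts, and carried the 7 day entry for the naive samples too. The cDNA came from a full-length amplification kit meant for single cells, and a given share of counts in such pools cannot tell fewer cells of a type from less RNA per cell.

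Complex I (NADH dehydrogenase) and complex II (succinate dehydrogenase) pass electrons from NADH and succinate to ubiquinone, complex III (the cytochrome bc1 complex) passes them to cytochrome c, and complex IV (cytochrome c oxidase) passes them to oxygen. Complexes I, III and IV pump protons, and complex V (ATP synthase) uses the resulting gradient to make ATP. Core subunits of every complex except complex II are encoded in mitochondrial DNA and transcribed as long polycistronic RNAs by a dedicated polymerase, whereas all other subunits are made from nuclear genes and imported. In ILC2s, mitochondrial respiration is known for its part in maintaining the cells and in their cytokine output.

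Total counts ranged from 29107326 to 53044907 per library, at which a count of 0 allows up to 3 counts, or 0.0566 to 0.103 CPM (counts per 1000000 counts of the library) depending on the library. This limit and the intervals below cover counting error only, since the amplified cDNA carried no molecular identifiers. The second naive library stood apart from the other 6. The 12 ILC2 markers summed to 1222 CPM in it against 11496 to 15830 CPM elsewhere, and Il1rl1, which encodes ST2, was at 6.79 CPM against 343 to 756 CPM. In the same library 15 of 15 kidney tubule markers exceeded 3 counts and summed to 11417 CPM, against 83.2 to 405 CPM elsewhere, and the 10 endothelial markers summed to 732 CPM against 39.9 to 62.8 CPM. Kidney tubule and endothelial cells lack CD45, which the gate described for the sort required. How RNA of their markers came into this library was not tested. The main results below are therefore given with and without the second naive library.

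The overlapping ends of mitochondrial genes are shown first, because they are what a count assigned to a single mitochondrial gene can and cannot resolve. On the GRCm38 mitochondrial chromosome, the end of mt-Atp8 and the start of mt-Atp6 share 43 bases, and the end of mt-Nd4l and the start of mt-Nd4 share 7 bases. Capitals mark the shared bases, on the plus strand, in windows chrM:7907-7989 and chrM:10147-10193.
mt-Atp8 and mt-Atp6: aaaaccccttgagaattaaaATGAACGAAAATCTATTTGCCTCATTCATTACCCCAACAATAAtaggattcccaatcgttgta
mt-Nd4l and mt-Nd4: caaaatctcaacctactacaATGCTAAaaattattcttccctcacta

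Mitochondrial messengers took a smaller share of counts in every allograft library than in any naive library. The 13 mitochondrial protein genes held 2.07%, 23.0% and 1.93% of all counts in naive libraries 1, 2 and 3. In the allografts they held 1.38%, 1.25%, 1.34% and 1.57%, with a mean of 1.39% ± 0.134 (SD, n = 4). The groups did not overlap, and the second naive library lay more than the whole remaining range above the rest. Counting error was small beside these distances, with a 95% Wilson interval of 1.567% to 1.576% in the highest allograft and of 1.926% to 1.934% in the lowest naive library.

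Nuclear OXPHOS genes behaved differently as a sum. The 84 nuclear genes held 2.84%, 4.57% and 1.29% of counts in naive libraries 1, 2 and 3. In the allografts they held 2.48%, 2.25%, 2.21% and 2.27%, with a mean of 2.30% ± 0.124 (SD, n = 4). All 4 allografts lay inside the range of the naive libraries, which was wide and ran from below every allograft in naive library 3 to above every allograft in naive libraries 1 and 2. With mitochondrial genes and their nuclear copies left out of the total, the nuclear share became 2.96%, 7.14% and 1.34% in the naive libraries and 2.28% to 2.56% in the allografts, in the same order.

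The count of mitochondrial messengers per nuclear OXPHOS count was 0.729, 5.04 and 1.49 in naive libraries 1, 2 and 3. Among allografts it was 0.554, 0.556, 0.609 and 0.693, which was below every naive library, though the gap between the first naive library and the fourth allograft was only 0.729 against 0.693. Naive libraries 2 and 3 reached their high ratios from opposite sides. In naive library 2 both sums were the highest of the 7 libraries, and in naive library 3 the nuclear sum was the lowest while the mitochondrial sum was near that of naive library 1.

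**Figure D1:**
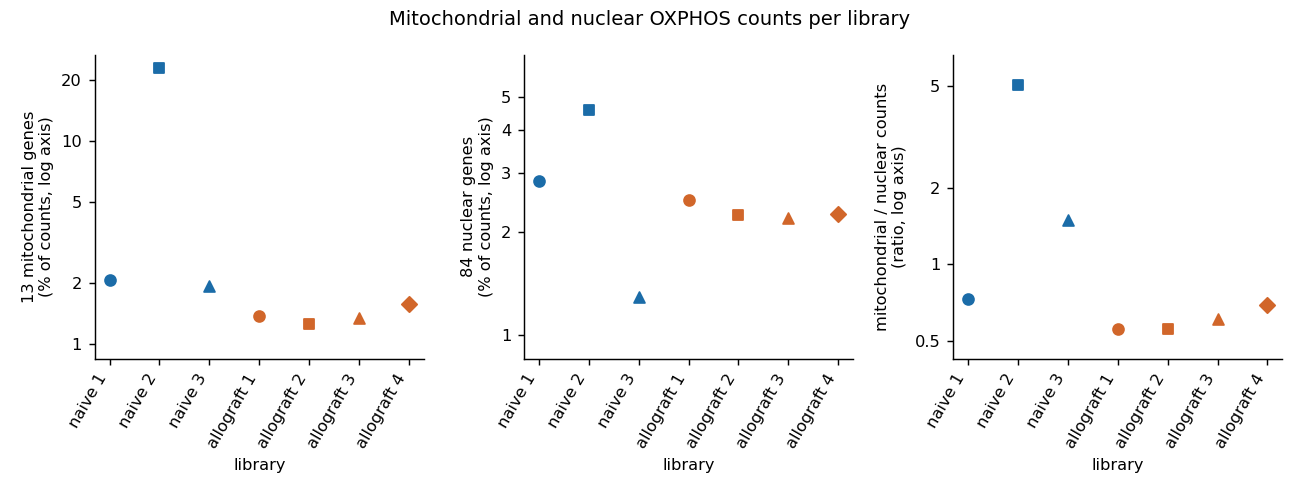
Share of all counts held by the 13 mitochondrial protein genes (left), by the 84 nuclear OXPHOS genes (middle) and the ratio of both sums (right) in each library, on log axes; each point is 1 library, blue for naive and orange for allograft. Allografts lie between 1.25% and 1.57% on the left, below every naive library, and between 2.21% and 2.48% in the middle, inside the naive range.

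Mitochondrial ribosomal RNA did not separate the groups in this way. The ribosomal genes mt-Rnr1 and mt-Rnr2 together held 1.03%, 3.45% and 0.785% of counts in naive libraries 1, 2 and 3, and 0.657%, 1.13%, 1.10% and 1.297% in allografts 1 to 4. Counts of mitochondrial messengers per ribosomal count were 2.00, 6.67 and 2.46 in the naive libraries and 2.10, 1.11, 1.22 and 1.21 in the allografts. The first allograft thus lay between the naive libraries, and the other 3 lay below all of them.

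In the fit across all 17015 genes tested (edgeR's quasi-likelihood test, Benjamini-Hochberg adjustment at 0.05), no member passed the threshold: 0 of 13 mitochondrial and 0 of 80 nuclear genes tested. The background was as thin, with 0.0294% of all genes called higher and 0.00588% called lower in allografts. At an unadjusted p under 0.05, 13 of 13 mitochondrial genes and 1 of 80 nuclear genes (Uqcrfs1) were lower, against 3.86% of all genes. None of either genome was higher, against 6.41% of all genes. The 13 mitochondrial genes share a genome and its long RNAs, so their counts here and below are not counts of independent genes. DESeq2 called 1 nuclear gene, Atp5g2, lower, where 2.23% of all genes were called lower and 3.72% higher, and gave no p for any of the 13 mitochondrial genes and no adjusted p for 4 nuclear genes (Ndufa5, Ndufs1, Cox4i1 and Cox7a1).

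The direction of the fitted changes was one-sided for both genomes while the second naive library was included. The log2 fold change, allograft over naive, was below 0 for 13 of 13 mitochondrial and 78 of 80 nuclear genes, against 50.6% of all genes. Its median was -3.41 for mitochondrial genes and -0.79 for nuclear genes, against -0.01 for all genes. Scaling by library totals alone, which moved the median of all genes to 0.18, left 66 of 80 nuclear and 13 of 13 mitochondrial values below 0.

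Without the second naive library the nuclear and mitochondrial genes parted. The nuclear median became 0.06, with 35 genes below 0 and 45 above (Cox7a1 and Cox6a2, at 0 in both naive libraries left, lie above this median at their lower bounds as well), while the mitochondrial median was -0.49 with 13 of 13 below 0 (range -1.14 to -0.21). The median of all genes in that fit was 0.23, and 41.3% of all genes were below 0. Of the members, 1 mitochondrial gene then passed the edgeR threshold as lower (mt-Nd1) and 1 nuclear gene as higher (Cox7a1), where 0.0998% of all genes were called lower and 3% higher. The naive libraries left in that fit had a count for fewer genes (15820 and 13864) than any allograft (19235 to 21354), and the part of this in the calls was not tested. At an unadjusted p under 0.05, 7 of 13 mitochondrial and 1 of 80 nuclear genes were lower (4.67% of all genes), and 3 of 80 nuclear genes were higher (15.6% of all genes). Leaving out naive library 1 instead gave 0 calls among the members, where 0.51% of all genes were called higher and 0.0584% lower, and a mitochondrial median of -3.90. Leaving out naive library 3 gave 0 calls, where 0.0372% of all genes were called higher and 0% lower, and a mitochondrial median of -3.92. In that last fit 50 of 80 nuclear genes had an unadjusted p under 0.05, but the smallest edgeR adjusted p among them was 0.152.

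**Figure D2:**
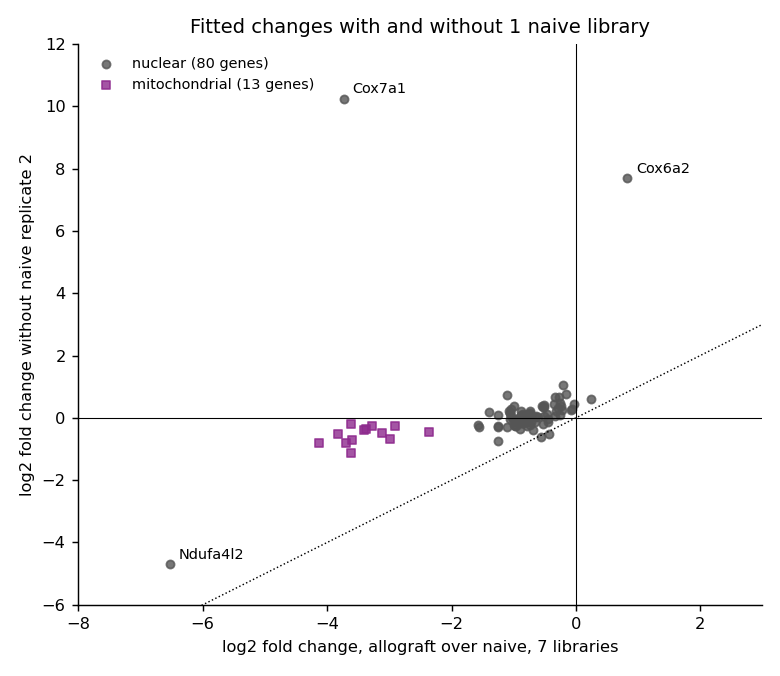
Log2 fold change, allograft over naive, of the 80 nuclear (grey circles) and 13 mitochondrial (purple squares) genes tested, fitted on 7 libraries (horizontal) and without the second naive library (vertical); the dotted line marks equal values. Mitochondrial genes move from a median of -3.41 to -0.49 and stay below 0, nuclear genes move from -0.79 to 0.06, and the 3 labelled genes have 0 counts in some libraries, so their fitted values depend on the prior count.

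Among the mitochondrial subunits of complex I, mt-Nd1 was the gene with the smallest p. This subunit (mitochondrial chromosome, 2751 to 3707, plus strand, GRCm38) lies in the membrane arm, at the entrance of the ubiquinone site. It stood at 1814, 17422 and 1591 CPM in naive libraries 1, 2 and 3 and at 714, 771, 770 and 946 CPM in allografts 1 to 4. Every allograft was below every naive library. The log2 fold change was -3.62 (SE 1.05, edgeR adjusted p = 0.275) with all libraries and -1.14 (SE 0.18, edgeR adjusted p = 0.0433) without the second naive library, with a range over 12 alternatives of 0.0433 to 1. In naive libraries 1 and 3 together, its mean CPM was 2.13 times the allograft mean.

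The other complex I genes of mitochondrial DNA encode further membrane-arm subunits. The proton-pumping subunit gene mt-Nd2 was at 701, 13711 and 733 CPM in the naive libraries and at 450, 476, 525 and 613 CPM in the allografts. Another pump subunit gene, mt-Nd4, was at 1175, 20652 and 1722 CPM in naive and at 790, 796, 794 and 1092 CPM in allograft libraries, and mt-Nd5 was at 610, 9794 and 778 CPM against 410, 445, 477 and 440 CPM. None of these 3 genes overlapped between the groups. Their edgeR adjusted p-values were between 0.323 and 0.341 with all libraries and between 0.111 and 0.223 without the second naive library. The remaining genes mt-Nd3, mt-Nd4l and mt-Nd6 overlapped: mt-Nd6, the only protein gene on the other strand, ran from 298 to 5170 CPM in naive and from 212 to 375 CPM in allograft libraries. Since mt-Nd5 and mt-Nd6 overlap on opposite strands and use of strand in the counting was not given in the sources used here, reads at that end cannot be told apart.

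Cytochrome b, the mitochondrial subunit of complex III that holds both of its b haems, showed the most extreme value of the second naive library. The gene mt-Cytb was at 2213, 45244 and 2442 CPM in naive libraries 1, 2 and 3 and at 1595, 1178, 1316 and 1419 CPM in allografts 1 to 4. The groups did not overlap, and the second naive library held 32.9 times the allograft mean, the largest such ratio among the 13 genes. Its log2 fold change was -4.13 (SE 1.29, edgeR adjusted p = 0.327) with all libraries and -0.81 (SE 0.19, edgeR adjusted p = 0.0840) without it.

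The 3 mitochondrial genes of complex IV encode its catalytic core. The gene for the subunit that reduces oxygen, mt-Co1, was at 5584, 33633 and 4957 CPM in naive and at 3574, 3646, 3927 and 4626 CPM in allograft libraries. The copper-binding subunit gene mt-Co2 was at 1723, 14546 and 1543 CPM in naive and at 954, 972, 942 and 1339 CPM in allograft libraries. Both were lower in every allograft than in any naive library, whereas mt-Co3, at 1970, 21310 and 1653 CPM in naive and at 1472, 1490, 1430 and 1901 CPM in allograft libraries, overlapped. The smallest ratio of the second naive library to the allograft mean, 8.53, belonged to mt-Co1.

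For complex V, mt-Atp6 encodes the subunit that forms the proton channel with the ring of c subunits. It was at 3871, 39606 and 3075 CPM in naive and at 2993, 2126, 2570 and 2472 CPM in allograft libraries, with the first allograft just under the third naive library. The gene of the small subunit 8, mt-Atp8, whose end is shared with mt-Atp6 as shown above, was at 576, 7605 and 429 CPM in naive and at 549, 294, 344 and 410 CPM in allograft libraries, and overlapped. In all, 8 of 13 mitochondrial genes, which are not independent of each other, were lower in every allograft than in any naive library. This compares with 2.15% of all genes and 0 of 80 nuclear members. None of either genome was higher in every allograft, against 12.5% of all genes. On CPM divided by the TMM factor, which was chosen after the values were seen, these counts were 8 of 13 and 1 of 80 (Atp5g2), against 3.19% of all genes lower and 10.5% higher.

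**Figure D3:**
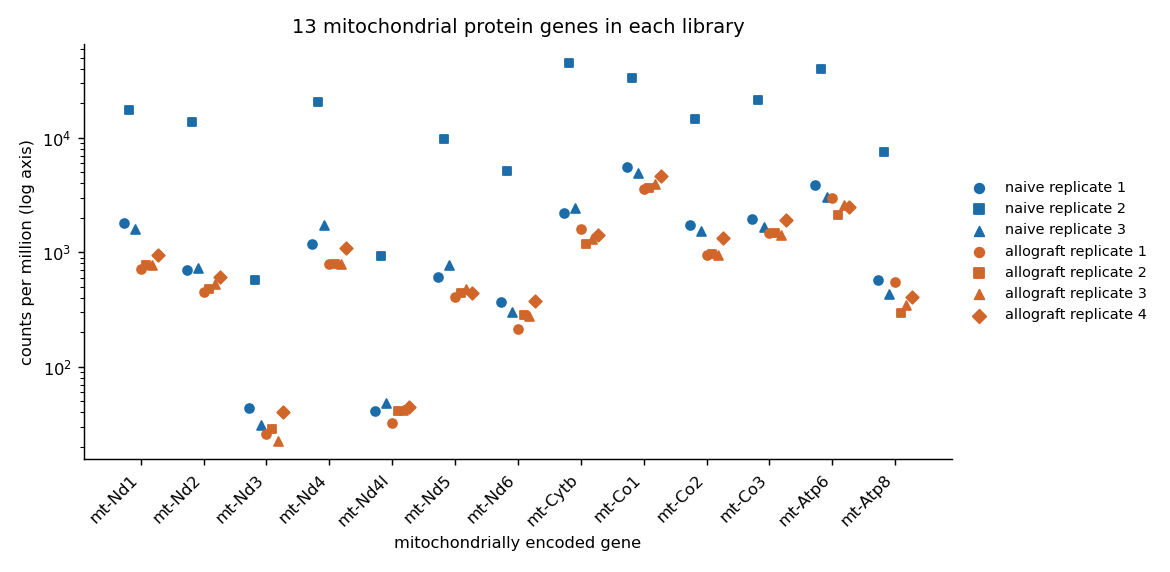
CPM (log axis) of each mitochondrial protein gene in the 7 libraries, blue for naive and orange for allograft, with a symbol for each replicate. The second naive library (blue squares) is highest for all 13 genes, and for 8 of the genes every allograft lies below every naive library.

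Per transcript length, on the deposited FPKM scale (fragments scaled to gene length and depth), the mitochondrial levels in allografts spanned a wide range. The highest allograft mean was that of mt-Atp6 at 3222 ± 442 FPKM, followed by mt-Co1 at 2204 ± 273 and mt-Co3 at 1734 ± 244 FPKM (SD, n = 4 each). Levels of mt-Co3 and mt-Atp8 (1696 ± 462 FPKM) did not differ beyond their spread. The lowest were mt-Nd4l at 116 ± 15.7 FPKM and mt-Nd3 at 73.3 ± 19.5 FPKM. The gene mt-Nd4, which shares bases with mt-Nd4l, had 544 ± 94.2 FPKM. This order holds for the values as listed. Genes mt-Atp8 and mt-Nd4l are short and overlap their neighbours, as shown above. For mt-Atp6, mt-Co1, mt-Co3 and mt-Nd3, near-identical nuclear copies exist over all or part of the gene. The part of gene length and read assignment in this order was not tested.

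Shares within the mitochondrial messenger pool do not depend on how much of a library that pool takes. The gene mt-Nd1 made up 8.77%, 7.57% and 8.24% of it in naive libraries 1, 2 and 3 and 5.18%, 6.15%, 5.73% and 6.02% in allografts 1 to 4. The reverse held for mt-Co3, at 9.52%, 9.26% and 8.57% in naive and 10.7%, 11.9%, 10.6% and 12.1% in allograft libraries. These 2 genes were the only 2 of 13 whose shares did not overlap between the groups. Shares of 1 pool are tied to each other, since a rise in 1 gene lowers the rest. The 2 genes were picked out after their values were seen, and no test was made.

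Elsewhere in the pool the second naive library was the one that differed. Its mt-Cytb share was 19.7% against 9.03% to 12.7% in the other 6 libraries, and its mt-Co1 share was 14.6% against 25.7% to 29.4%. The first allograft had the highest shares of mt-Atp6 (21.7%) and mt-Atp8 (3.99%) of the 7 libraries.

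**Figure D4:**
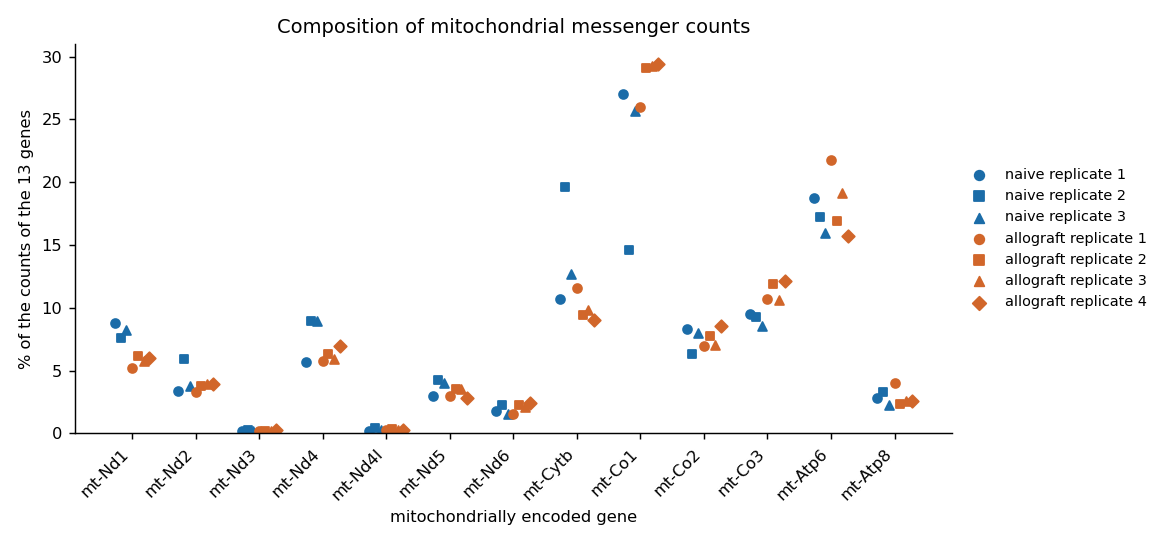
Share of each gene in the counts of the 13 mitochondrial protein genes, in percent, for the 7 libraries (blue naive, orange allograft, a symbol for each replicate). For mt-Nd1 the naive libraries (7.57% to 8.77%) lie above all allografts, and for mt-Co3 the allografts (10.6% to 12.1%) lie above all naive libraries; the second naive library (blue square) stands apart for mt-Cytb and mt-Co1.

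Reads of several mitochondrial genes were also listed under near-identical copies in the nuclear genome. A stretch of mouse chromosome 1 (GRCm38, 24611535 to 24616197, minus strand) holds 6 annotated copies. The copy Gm28661 matched mt-Co2 at 100% over 681 bases, and its counts were 1.0000 to 1.0011 times those of mt-Co2 in the 7 libraries. Likewise Gm28437 matched mt-Co3 at 100% over 783 bases with counts 1.0008 to 1.0013 times as high, and Gm10925 matched mt-Atp6 at 100% over 678 bases with counts 1.019 to 1.025 times as high. The difference between mt-Co2 and its copy never exceeded 0.204 times the square root of their summed counts. Together the 6 copies held 10268, 95023 and 8901 CPM in the naive libraries and 6583 to 8277 CPM in the allografts, in step with the mitochondrial genes. Whether reads were counted at both places or split between them was not tested, and how the authors treated reads with several matches was not given in the sources used here, so the mitochondrial levels above are those listed under the mitochondrial gene alone.

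Turning to the nuclear genes, summed levels per complex placed the naive libraries in the same order in all 5 complexes. The complex I sum was 9407, 15195 and 4440 CPM for naive libraries 1, 2 and 3, and 7985, 7201, 7052 and 7274 CPM for allografts 1 to 4. For complex IV it was 6678, 10920 and 2777 CPM in naive and 6105, 6028, 5205 and 5943 CPM in allograft libraries. In complexes I to V alike, the second naive library was highest, the first naive library next, the third lowest, and the 4 allografts lay between the first and the third.

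**Figure D5:**
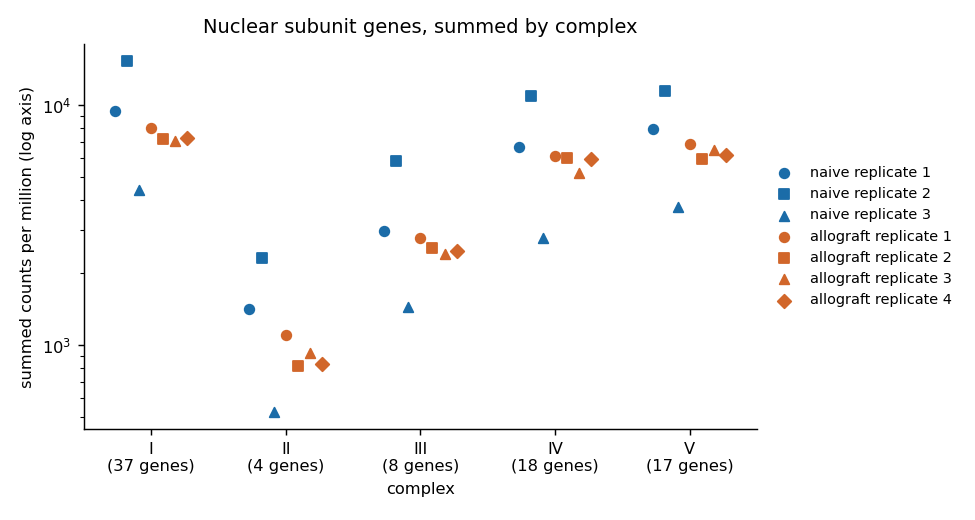
Summed CPM (log axis) of the nuclear members of each complex in the 7 libraries, blue for naive and orange for allograft, with a symbol for each replicate. In every complex the allografts fall between the naive libraries 1 (blue circle) and 3 (blue triangle).

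Gene by gene, this order was common to most nuclear members. The second naive library was the highest of 7 for 70 of 80 nuclear genes tested, against 19.7% of all genes, and the third was the lowest for 66 of 80, against 24.2%. Both held at once for 60 of 80, against 6.34% of all genes. All 4 allografts lay inside the naive range for 67 of 80, against 43.1%. The highest naive library exceeded the lowest by a median of 4.05-fold over 76 nuclear genes with counts in all naive libraries, and by up to 13.3-fold (Sdhc). The highest allograft exceeded the lowest by a median of 1.29-fold over 78 genes, and by 2.08-fold at most (Ndufs1). These spreads were not measured over all genes, so they cannot be called particular to the members. The number of genes with any count was also lowest in the third naive library, at 13864, followed by 15820 in the first, 20254 in the second and 19235 to 21354 in the allografts, and its part in these low values was not tested.

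Set against naive libraries 1 and 3 alone, 1 of 80 nuclear genes (Atp5g2) was lower in every allograft, against 7.49% of all genes and 8 of 13 mitochondrial genes. Higher in every allograft than in both of these libraries were 4 of 80 (Cox4i1, Cox7a1, Ndufa6 and Ndufs1), against 21.6% of all genes, and 0 of 13 mitochondrial genes. Since the second naive library was the highest for 13 of 13 mitochondrial genes, their count of 8 could not differ from that with all naive libraries.

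In complex I, 36 of 37 nuclear genes tested had a fitted log2 fold change below 0 with all libraries (median -0.87). Without the second naive library it was 17 of 37 (median 0.03), and none passed the test in either fit. For comparison here and in the complexes below, the median of all genes was -0.01 with all libraries, with 50.6% below 0. Without the second naive library the median of all genes was 0.23, with 41.3% below 0. The most abundant complex I members per length were the accessory subunit genes Ndufa2, with an allograft mean of 755 ± 74.5 FPKM, and Ndufa1, with 465 ± 48.8 FPKM (SD, n = 4 each). In CPM, Ndufa2 was at 528, 500 and 294 in naive and at 496, 498, 438 and 559 in allograft libraries, which overlapped. The exception in sign was the accessory subunit gene Ndufv3, at 238, 215 and 92.3 CPM in naive and at 292, 232, 237 and 265 CPM in allograft libraries (log2 fold change 0.24, SE 0.42, edgeR adjusted p = 0.930).

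A pair of complex I and IV relatives, Ndufa4 and Ndufa4l2, differs in use between tissues, Ndufa4l2 being known as a hypoxia-induced form and Ndufa4 as a subunit that is now assigned to complex IV. The gene Ndufa4 was at 313, 570 and 127 CPM in naive and at 198, 168, 174 and 187 CPM in allograft libraries (log2 fold change -1.25, SE 0.57, edgeR adjusted p = 0.532). Its relative Ndufa4l2 was at 0, 21.04 and 6.84 CPM in naive libraries 1, 2 and 3, at 0.555 CPM in the second allograft and at 0 in the other 3 allografts. It accounted for 4.44% and 6.34% of the summed FPKM of the pair in naive libraries 2 and 3. Exons of Ndufa4l2 overlap Shmt2 on the opposite strand, so its reads (957 and 298 counts in naive libraries 2 and 3) cannot be assigned with certainty.

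Complex II, the only complex without a mitochondrial gene, was covered by all 4 of its subunits, and none passed the test. The flavoprotein gene Sdha was at 247, 426 and 105 CPM in naive and at 204, 141, 167 and 176 CPM in allograft libraries. For the iron-sulphur subunit gene Sdhb the values were 587, 708 and 267 CPM in naive and 406, 320, 348 and 302 CPM in allograft libraries. The membrane anchors Sdhc and Sdhd followed the same order, with Sdhc at 255, 567 and 42.7 CPM in naive and at 241, 159, 185 and 159 CPM in allograft libraries, and Sdhd at 317, 605 and 110 CPM against 247, 193, 220 and 191 CPM. All 4 genes overlapped between the groups, their log2 fold changes were between -1.06 and -0.89, and their edgeR adjusted p-values were between 0.598 and 0.760. Without the second naive library the median of the 4 was -0.05, against 0.23 for all genes.

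In complex III, 8 of 8 genes had a log2 fold change below 0 with all libraries (median -0.84). Without the second naive library it was 5 of 8 (median -0.08, against 0.23 for all genes). The Rieske iron-sulphur protein gene Uqcrfs1 (chromosome 13, 30540308 to 30545362, minus strand, GRCm38) had the smallest p of all nuclear members. It was at 292, 844 and 172 CPM in naive and at 217, 202, 196 and 169 CPM in allograft libraries, and only the fourth allograft was below the third naive library. Its log2 fold change of -1.56 (SE 0.65, edgeR adjusted p = 0.466) became -0.28 (SE 0.26, edgeR adjusted p = 0.611) without the second naive library. The ubiquinone-site subunit gene Uqcrb, at 344, 888 and 117 CPM in naive and at 232, 180, 192 and 201 CPM in allograft libraries, went from -1.57 (SE 0.71, edgeR adjusted p = 0.523) to -0.23 (SE 0.40, edgeR adjusted p = 0.819). The small subunit gene Uqcr10 was the most abundant per length, with an allograft mean of 1037 ± 148 FPKM, ahead of Uqcr11 with 328 ± 43.0 FPKM (SD, n = 4 each).

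Complex IV held the 2 nuclear genes with the smallest p without the second naive library, Cox7a1 and Cox4i1. The regulatory subunit gene Cox4i1 (chromosome 8, 120668222 to 120674207, plus strand, GRCm38), which encodes the widespread form of subunit 4, was at 589, 1822 and 437 CPM in naive libraries 1, 2 and 3 and at 1121, 1201, 964 and 1068 CPM in allografts 1 to 4. The allografts lay above naive libraries 1 and 3 and below the second. Its log2 fold change was -0.20 (SE 0.65, edgeR adjusted p = 0.967) with all libraries, 0.20 with library totals alone, and 1.04 (SE 0.21, edgeR adjusted p = 0.0547) without the second naive library, the lowest adjusted p of 14 alternatives that ranged up to 1. Exons of Cox4i1 overlap Emc8 on the opposite strand, which reached at most 90.9 CPM. The lung-type relative Cox4i2 had counts in the second naive library only (334 counts, 7.34 CPM) and was not tested.

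The subunit 7a genes held the only nuclear call without the second naive library, since Cox4i1 did not pass. Cox7a1 (chromosome 7, 30184144 to 30186078, plus strand, GRCm38) encodes the form known from heart and skeletal muscle, and Cox7a2 the widespread form. The counts of Cox7a1 came to 0, 102 and 0 CPM in naive libraries 1, 2 and 3 and to 3.61, 4.78, 2.84 and 3.95 CPM in allografts 1 to 4, from 115 to 159 counts each. The allograft mean was at least 55.2-fold higher than the 3-count limit per library of naive libraries 1 and 3, and the second naive library was at 26.8 times the allograft mean. With all libraries the edgeR adjusted p was 0.719, and without the second naive library it was 0.0410, with a range over 14 alternatives of 0.0410 to 1.

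Per length, Cox7a1 stayed a small part of its pair. It was 21.95% of the summed FPKM of Cox7a1 and Cox7a2 in the second naive library, 1.25% to 2.03% in the allografts, and 0% in the other naive libraries. The widespread Cox7a2 was at 888, 640 and 180 CPM in naive and at 468, 410, 396 and 393 CPM in allograft libraries. The 15 heart muscle markers summed to 3.86 to 23.9 CPM in naive and to 14.7 to 39.4 CPM in allograft libraries, with Tnnt2, Myl2, Mb, Ckmt2 and Ryr2 at 0 in all 7 libraries and Myh6 at 0 in all but the second naive library (0.637 CPM). Most of the sum in allografts was Ttn, at 7.70 to 35.4 CPM, and Ttn was at 14.6 CPM in the third naive library, where Cox7a1 was at 0. Of the other markers, Pln was at 16.0 CPM in the second naive library, where Cox7a1 was highest, and at 0 to 0.0926 CPM in the other 6 libraries. Actc1 was at 0 in all 3 naive libraries and at 3.98, 3.21, 0 and 1.07 CPM in allografts 1 to 4, and Tnni3 was at 0, 1.36 and 9.22 CPM in naive and at 1.61, 2.38, 3.57 and 0 CPM in allograft libraries. The part of muscle RNA in the Cox7a1 counts was not tested.

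The remaining tissue-restricted forms of complex IV were at 0 or below 7 CPM. Of the heart and muscle forms, Cox8b was at 0 in every library and Cox6a2 was at 0, 0.725 and 0 CPM in naive and at 1.54, 0, 0.612 and 0.378 CPM in allograft libraries (edgeR adjusted p = 0.959). The testis forms Cox8c and Cox7b2 were at 0 in every library, and Cox6b2 was at 6.84, 5.87 and 0 CPM in naive and at 3.77, 3.58, 3.65 and 3.95 CPM in allograft libraries. Their widespread partners were among the most abundant nuclear members per length: Cox6a1 had an allograft mean of 1548 ± 198 FPKM, Cox6b1 of 726 ± 73.0 FPKM and Cox8a of 628 ± 79.3 FPKM (SD, n = 4 each). In CPM, Cox6a1 was at 1208, 2011 and 592 in naive and at 1282, 1203, 1070 and 1458 in allograft libraries. Over the 14 complex IV genes tested, 13 had a log2 fold change below 0 with all libraries (median -0.60). Without the second naive library it was 4 of 14 (median 0.17), against 41.3% of all genes (median 0.23). The related Cox7a2l, which encodes a factor for respiratory supercomplexes, was at 219, 126 and 198 CPM in naive and at 109, 210, 122 and 168 CPM in allograft libraries.

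In complex V, 17 of 17 genes had a log2 fold change below 0 with all libraries (median -0.62). Without the second naive library it was 6 of 17 (median 0.09), against 41.3% of all genes (median 0.23). The stalk subunit gene Atp5h had an allograft mean of 315 ± 20.7 FPKM (SD, n = 4) and was at 654, 942 and 368 CPM in naive and at 558, 565, 492 and 508 CPM in allograft libraries. An exception to the order of libraries was Atp5g2 (chromosome 15, 102662864 to 102672352, minus strand, GRCm38), 1 of 3 genes for the same proton-carrying c subunit. It was at 120, 70.4 and 106 CPM in naive and at 80.3, 75.7, 63.8 and 82.8 CPM in allograft libraries, so that the second naive library was the low one. The log2 fold change was -0.56 (SE 0.26, edgeR adjusted p = 0.527) with all libraries, -0.63 (SE 0.22, edgeR adjusted p = 0.206) without the second naive library and -0.75 (SE 0.20, adjusted p = 0.00450) in DESeq2, with a range over 15 alternatives of 0.00450 to 1. The central stalk subunit gene Atp5c1, next to Atp5h in abundance per length when averaged over all 7 libraries, was at 645, 714 and 378 CPM in naive and at 584, 451, 570 and 451 CPM in allograft libraries.

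Reads of Atp5g2 are uncertain, because 2 pseudogenes match it at 98% or more and together held 0.590 times its counts. Such near-identical pseudogenes, aligned over at least 100 bases, exist for 13 nuclear members. In 8 of the 13 they held more than 10% of the gene's counts, and in Atp5g2 alone more than 50%. Exons of 26 nuclear members overlap another gene on the opposite strand and those of 5 overlap on the same strand.

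Nuclear OXPHOS promoters are known for binding NRF1, ETS factors such as GABPA, and YY1, and the members varied together across the naive libraries, so their promoters were searched for 3 fixed motifs. RefSeq windows of 250 bases before to 50 after the start (GRCm38.p6) were matched for 69 nuclear members and searched on both strands. The NRF1 palindrome, whose 10 letters are the capitals in the Atp5g2 promoter printed below, was found in 5 of 69 (7.25%) against 1.07% of 27025 genes, CCGGAAG (ETS) in 16 of 69 (23.2%) against 9.93%, and AAGATGGC (YY1) in 11 of 69 (15.9%) against 3.19%. At least 1 of the 3 was in 29 of 69 (42.0%), against 13.4% of all genes. None of the 3 motifs contains another. A match describes the letters only.

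The 120 bases before the RefSeq start are shown for the gene called by DESeq2 (Atp5g2, chr15:102671048-102671167, minus strand). They are also shown for the most abundant nuclear member per length (Cox6a1, chr5:115348959-115349078, minus strand) and the gene called without the second naive library (Cox7a1, chr7:30184051-30184170, plus strand). The RefSeq starts differ from the ends of the gene intervals used elsewhere here. The Atp5g2 window lies inside the interval given above for that gene, and the windows of Cox6a1 and Cox7a1 partly overlap theirs. Capitals mark the NRF1 motif in Atp5g2 and the ETS motif, read on the other strand, in Cox6a1, and these bases of Cox7a1 hold none of the 3.
Atp5g2: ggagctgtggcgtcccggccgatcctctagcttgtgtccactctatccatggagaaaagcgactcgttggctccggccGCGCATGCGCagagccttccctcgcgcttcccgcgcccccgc
Cox6a1: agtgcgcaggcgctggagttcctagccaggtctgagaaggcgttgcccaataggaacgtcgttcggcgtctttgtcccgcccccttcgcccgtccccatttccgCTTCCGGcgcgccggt
Cox7a1: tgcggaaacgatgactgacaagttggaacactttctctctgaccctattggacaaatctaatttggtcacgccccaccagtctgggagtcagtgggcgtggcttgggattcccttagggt

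Regulators of these promoters and of mitochondrial transcription did not pass the test. The gene Nrf1 was at 13.7, 6.20 and 152 CPM in naive and at 22.9 to 35.8 CPM in allograft libraries, so that the third naive library, lowest for most nuclear members, was highest here. The ETS factor gene Gabpa was at 27.3, 20.3 and 7.78 CPM in naive and at 11.5 to 44.0 CPM in allograft libraries. The coactivator gene Ppargc1a was at 0, 91.4 and 0 CPM in naive and at 0 to 1.11 CPM in allograft libraries, and the related Ppargc1b was at 0.207, 13.7 and 6.95 CPM against 0.881 to 7.71 CPM. Both coactivators were highest in the second naive library, where kidney tubule markers were highest too, and the part of that RNA in these values was not tested. For Tfam, which packages mitochondrial DNA and starts its transcription, the values were 52.7, 23.7 and 1.08 CPM in naive and 18.5 to 35.0 CPM in allograft libraries. The mitochondrial RNA polymerase gene Polrmt was low throughout, at 2.87 to 11.1 CPM in naive and 1.45 to 5.74 CPM in allograft libraries.

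Of the lists of neighbouring genes, 0 genes passed in the fit of all libraries. For comparison with the lists here and below, the median of all genes was -0.01 in that fit, with 50.6% below 0. Without the second naive library the median of all genes was 0.23, with 41.3% below 0. In the tricarboxylic acid cycle, 17 of 18 genes had a log2 fold change below 0 (median -1.01, and -0.07 without the second naive library), led by the pyruvate dehydrogenase subunit gene Pdha1 at 199, 280 and 333 CPM in naive and 99.5 to 156 CPM in allograft libraries (edgeR adjusted p = 0.229, then 0.113). For the mitochondrial ribosome and translation it was 66 of 88 (median -0.33, and -0.0029 without the second naive library), led by Mrpl50 at 73.2, 48.6 and 50.4 CPM in naive and 26.6 to 31.7 CPM in allograft libraries (edgeR adjusted p = 0.194, then 0.0915). Groups of both genes, which were named for the smallest p in their lists, did not overlap. In these lists 2 of 18 and 7 of 88 genes were lower in every allograft than in any naive library, against 2.15% of all genes. Higher in every allograft were 0 of 18 and 3 of 88, against 12.5% of all genes. Mitochondrial transcription and RNA genes were below 0 for 14 of 19 (median -0.67, and -0.44 without the second naive library), complex IV assembly genes for 14 of 21 (median -0.39, then 0.10), and mitochondrial DNA replication genes for 6 of 10 (median -0.15, then 0.15).

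The gene with the smallest p among those of mitochondrial transcription and RNA was the transcription factor gene Tfb2m, at 19.0, 29.9 and 35.7 CPM in naive and 10.3 to 15.0 CPM in allograft libraries, without overlap (edgeR adjusted p = 0.341, and 0.226 without the second naive library). In that list 1 of 19 genes was lower in every allograft, against 2.15% of all genes, and 1 of 19 was higher, against 12.5%. Among 16 regulators tested (median -0.09, and 0.034 without the second naive library) the gene with the smallest p was the deacetylase gene Sirt3, at 38.2, 115 and 155 CPM in naive and 24.9 to 46.1 CPM in allograft libraries, which overlapped (edgeR adjusted p = 0.285, then 0.219). The assembly lists of complexes II, III and V were small, with 1 of 4, 4 of 6 and 4 of 5 genes below 0. Without the second naive library their medians went from 0.11 to 0.15, from -0.36 to 0.72 and from -0.82 to 0.52, so that those of complexes III and V changed sign.

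Complex I assembly factors were below 0 for 12 of 15 (median -0.77, then -0.07). Among them Ndufaf4, which helps to assemble the peripheral arm, was at 80.0, 28.2 and 68.2 CPM in naive and at 20.4, 22.4, 22.5 and 19.6 CPM in allograft libraries. In this list 2 of 15 genes were lower in every allograft than in any naive library, against 2.15% of all genes, and 0 were higher, against 12.5%. Ndufaf4 was among the lower ones, with a log2 fold change of -1.60 (SE 0.34, edgeR adjusted p = 0.144) with all libraries, and fell in the fit without the second naive library (-1.85, SE 0.25, edgeR adjusted p = 0.0362). The mitochondrial topoisomerase gene Top1mt was the other gene of these lists called without that library (edgeR adjusted p = 0.0372). It was at 0, 12.7 and 0 CPM in naive and at 6.45, 11.3, 4.53 and 8.59 CPM in allograft libraries. The naive libraries at 0 were those with the fewest detected genes. In that fit the calls were 1 of 15 complex I assembly genes and 1 of 10 mitochondrial DNA replication genes. The remaining lists held no call. Of all genes, 3% were called higher and 0.0998% lower in that fit. Top1mt was named after its values were seen.

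Electron carriers and exchangers around the complexes had 11 of 13 values below 0 (median -0.62, and 0.07 without the second naive library). Cytochrome c, the carrier between complexes III and IV, followed the order of the nuclear subunit sums, with Cycs at 968, 2007 and 361 CPM in naive and at 777, 638, 665 and 598 CPM in allograft libraries. The uncoupling protein gene Ucp2 went the other way, at 440, 127 and 219 CPM in naive and at 639, 524, 564 and 571 CPM in allograft libraries. Every allograft was above every naive library for Ucp2, with a log2 fold change of 1.01 (SE 0.38, edgeR adjusted p = 0.389), which was 0.77 (SE 0.30, edgeR adjusted p = 0.238) without the second naive library. In this list 2 of 13 genes were higher in every allograft, against 12.5% of all genes, and 0 were lower, against 2.15%.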

How the data were processed

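The authors deposited raw counts of each gene and, for the same genes and 7 libraries, FPKM. The submitters' processing notes name FastQC 0.11.5, STAR 2.5.3a, StringTie 1.3.1c, DESeq2 1.16.1 and the build mm10, with no roles. Annotation, strand use and treatment of reads with several matches were not given in the sources used here.

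Counts were tested as deposited with edgeR 4.0.16 in R 4.3.3 (TMM, filterByExpr, quasi-likelihood fit, no covariate, Benjamini-Hochberg adjustment over 17015 genes at 0.05); DESeq2 1.42.0 was an alternative. Levels are CPM of the deposited total, and FPKM only where genes are compared. On simulated counts, 197 of 200 changed genes were recovered with 6 false calls. Apart from the changed genes, the simulated libraries differed only in depth and random spread, and none stood apart like the second naive library. How many changed genes the test recovers in the real data was therefore not measured. Pseudogenes and copies were found by aligning GENCODE M21 transcripts (GRCm38).

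Named genes were up to 5 per direction with the smallest p, the 2 most abundant per complex, complex II, the tissue-restricted paralogs, all 13 mitochondrial genes, the smallest-p gene of each neighbouring list and fixed regulators. Members and lists were chosen with earlier results of these data known. P-values measure the spread between pooled libraries.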

Additional observations from a re-analysis of the deposited data

Results flagged for a closer look

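Within the 4 allografts, 46 members' values were examined for a library far from the others, where chance alone would mark about 1 in 20, or 2.3. A single allograft stood apart for 4 genes. The fourth allograft was high for mt-Nd4, at 1092 CPM against 790 to 796 CPM in the other 3, for mt-Co2, at 1339 CPM against 942 to 972 CPM, and for mt-Co3, at 1901 CPM against 1430 to 1490 CPM. These 3 genes share the mitochondrial genome and are not independent of each other. The second allograft was the only one with counts of Ndufa4l2, at 0.5554 CPM against 0.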

How the results depend on the processing

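Over 15 alternatives, the count of nuclear genes past the threshold was 1 (Atp5g2) with the DESeq2 Wald test, ranged from 0 to 1 when 1 library was left out, and was 0 otherwise. That of mitochondrial genes ranged from 0 to 1 when 1 library was left out and was 0 otherwise, DESeq2 giving no p for any of them. The nuclear median ranged from -1.12 to 0.064 and the mitochondrial median from -3.92 to -0.49 when 1 library was left out, both upper values being without naive 2. Replicate numbers did not pair the libraries (correlations of deviations 0.02, -0.02 and 0.04, with 1 of 3 numbers correlating best with itself). With a replicate block the mitochondrial median was -1.83 and 0 members passed.

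Of 542 values of 38 named genes, 520 kept their direction and side of the threshold. A further 2 newly passed it in the same direction (mt-Nd1 and Atp5g2), and 20 in 13 genes reversed. The reversed values include that of Cox7a1 without naive 2, which passed the threshold as well. Library totals alone reversed Cox4i1 (0.20), Ndufa2 (0.18) and Uqcr10 (0.029). The replicate block reversed Cox4i1 (0.31), Cox6b2 (0.50), Cox7a1 (6.26) and Uqcr10 (0.079). Ranges with 1 library left out crossed 0 for Atp5h (-0.94 to 0.016), Cox4i1 (-0.58 to 1.04), Cox6a1 (-0.73 to 0.44), Cox6a2 (-0.17 to 7.69), Cox6b1 (-0.96 to 0.35), Cox6b2 (-1.04 to 0.11), Cox7a1 (-4.29 to 10.25), Cox8a (-1.13 to 0.22), Ndufa1 (-1.04 to 0.025), Ndufa2 (-0.34 to 0.24), Ndufv3 (-0.10 to 0.60), Sdhc (-1.54 to 0.30) and Uqcr10 (-0.76 to 0.66). Apart from naive 2, only leaving out naive 3 (Ndufv3) or allograft 1 (Cox6a2) reversed any. The cause was not tested. Leaving the mitochondrial genes and their copies out, added after the data were seen, gave a nuclear median of -0.83 and 0 calls. Counts of 0 leave the fitted size uncertain for Cox7a1, Cox6a2 and Ndufa4l2, and for Cox6a2 the sign as well. For Cox7a1, naive 1, the deepest library (53044907 counts), was at 0, while allograft 4, the shallowest (29107326), had 115 counts. Naive 1 nevertheless had a count for fewer genes (15820) than allograft 4 (21354), and the part of this in the counts of 0 was not tested.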
